A study of Homo sapiens with 6 samples.

Results

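The zinc finger gene clusters of human chromosome 19 were followed as 6 windows of hg19 coordinates, 12.75 Mb in all. Every poly(A) site on either strand inside a window was a member, whatever its level or response. The 6 libraries placed reads at 26351 nucleotides of these windows, out of 2438055 nucleotides in all. Nucleotides within 25 nt of a local maximum were joined, which gave 12168 sites. Of these, 676 reached a mean of at least 1 CPM (the count scaled to the library total) over the 6 libraries, against 49695 such sites in the nuclear genome. Neighbouring sites of a strand were joined into units across gaps of up to 5 kb, of which the windows held 366 of 28114. In 144 of these units the 2 most used sites each held at least 5% of the reads and formed a pair, out of 8999 pairs in all.

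Zinc finger proteins of this kind bind DNA through tandem finger repeats. Many carry a KRAB domain, which recruits the corepressor TRIM28 and silences chromatin, in many cases at transposable elements. Their genes arose by repeated tandem duplication and stand side by side on chromosome 19, so neighbouring genes resemble each other in sequence. In the RefSeq annotation of GRCh38.p14, 250 of the 1451 protein-coding genes of chromosome 19 have a ZNF symbol, out of 518 in the genome. An annotation of hg19 was not used here, so loci are named by coordinate and strand. Which unit belongs to a zinc finger gene and which to another gene in the same window was not determined, and ends of neighbouring transcripts can fall into 1 unit. How the authors treated reads that match several places is not given in the sources used here, so values of units in near-identical copies are uncertain.

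The study counted the 3' ends of polyadenylated RNA by A-seq in HEK293, a human embryonic kidney line, after siRNA against a subunit of cleavage factor Im. This complex binds UGUA motifs upstream of poly(A) sites and takes part in the choice between them. The subunit CF Im25 contacts the motif, while CF Im68 and CF Im59 are larger partners. Cells treated with CF Im25 siRNA, CF Im59 siRNA or scrambled siRNA, and cells without siRNA, gave 4 libraries fragmented by alkaline hydrolysis. Cells treated with CF Im68 siRNA and with scrambled siRNA gave 2 more, fragmented by RNase I. The name of the CF Im68 sample ends in the digit 2, and whether this marks a replicate or another siRNA is not given in the sources used here. The siRNA cells were transfected with a lipid reagent and harvested after 3 days, and all groups share the same line. Each group held 1 library, so no difference could be set against a spread between replicates and no p-value is given. The intervals of shares and ratios below cover the counting error of reads. Those of percentages called are over pairs or units and treat these as independent draws. Both kinds compare libraries, not conditions. Whether the targets were depleted was not analysed here.

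Library totals ranged from 5351980 to 18183644 reads. The windows took 0.860% of the reads after CF Im25 siRNA, 0.832% after CF Im59 siRNA, 0.896% with scrambled siRNA and 0.953% without siRNA (alkaline). With RNase I they took 0.567% after CF Im68 siRNA and 0.643% with scrambled siRNA. The median cluster unit held 47 reads after CF Im25 siRNA, 57 after CF Im59 siRNA, 45 with scrambled siRNA and 78.5 without siRNA. It held 36 reads after CF Im68 siRNA and 20 with scrambled siRNA in the RNase I libraries, so the RNase I control was the shallowest library and set the limit for its comparisons.

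The clusters were unequal in output. The windows at 36600000-38500000, 43900000-45000000 and 56800000-59100000 (windows 3, 4 and 6) spanned 5.3 Mb and held 264 units with 91.0% of the summed CPM of cluster units. The other windows, at 11700000-12750000, 19800000-24500000 and 52300000-54000000 (windows 1, 2 and 5), spanned 7.45 Mb and held 102 units. Window 4 was the densest with 59.1 units per Mb, and window 2 the sparsest with 9.15 units per Mb. Levels were low for most units: 260 of 366 averaged under 10 CPM, while the 12 units of at least 100 CPM carried 51.3% of the summed level.

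**Figure D1:**
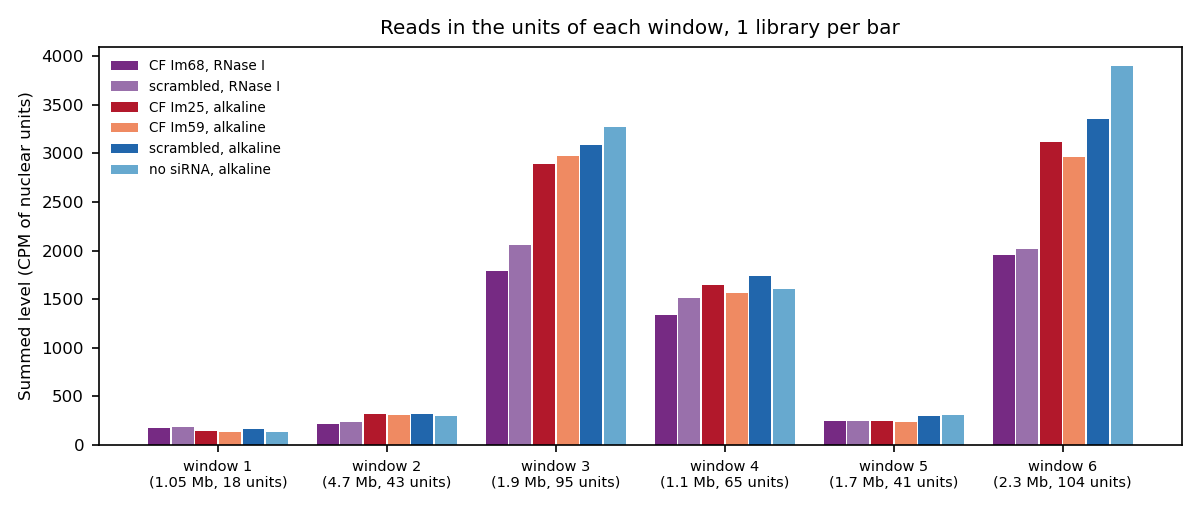
Summed reads of all units in each of the 6 chromosome 19 windows, in CPM of reads in nuclear units (linear axis), with 1 bar per library and no error bars because each group held 1 library. Windows 3, 4 and 6 stand above the others in all 6 libraries, and in windows 2, 3, 4 and 6 the 2 RNase I bars are lower than the 4 alkaline bars.

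The summed level of a window differed little between a knockdown and its control. Levels below are in CPM scaled to the reads in nuclear units. Window 3 reached 2889 CPM after CF Im25 siRNA and 2971 CPM after CF Im59 siRNA, against 3083 CPM with scrambled siRNA and 3275 CPM without siRNA. Window 5 had the lowest ratios to scrambled siRNA, 0.851 (95% interval 0.805 to 0.900) after CF Im25 siRNA and 0.784 (0.742 to 0.828) after CF Im59 siRNA. After CF Im68 siRNA the ratios to scrambled siRNA in RNase I libraries ran from 0.869 in window 3 to 1.005 in window 5.

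Single units led each window. The highest of window 6, on the plus strand at 58906171, had 860 CPM after CF Im25 siRNA, 840 after CF Im59 siRNA, 952 with scrambled siRNA and 1492 without siRNA. In RNase I libraries it had 336 CPM after CF Im68 siRNA and 269 with scrambled siRNA. Among the alkaline libraries it was highest without siRNA. Window 3 was led by the plus-strand unit at 36641255, a single site with 725 CPM after CF Im25 siRNA, 694 after CF Im59 siRNA, 1001 with scrambled siRNA, 929 without siRNA, 208 after CF Im68 siRNA and 217 with scrambled siRNA and RNase I. Here both alkaline knockdowns lay below both alkaline controls, and neither difference reached 2-fold. The leading unit of window 4, on the minus strand at 44111610, had 118 CPM after CF Im25 siRNA and 101 after CF Im59 siRNA, against 273 with scrambled siRNA and 149 without siRNA. It had 393 CPM after CF Im68 siRNA and 452 with scrambled siRNA and RNase I, so the scrambled alkaline library was high relative to the other alkaline libraries. Another leading unit of window 3, at 36616843 on the plus strand, had 118 CPM after CF Im25 siRNA and 134 after CF Im59 siRNA, against 197 with scrambled siRNA and 164 without siRNA, and 479 CPM after CF Im68 siRNA against 396 with scrambled siRNA and RNase I.

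The leading units of the sparser windows were smaller. Window 1 was led by the plus-strand unit at 12740677, with 78.4 CPM after CF Im25 siRNA, 64.9 after CF Im59 siRNA, 86.5 with scrambled siRNA and 56.2 without siRNA. Window 2 was led by the plus-strand unit at 21301255, with 105 CPM after CF Im25 siRNA, 74.2 after CF Im59 siRNA, 94.6 with scrambled siRNA and 75.5 without siRNA. Window 5 was led by the plus-strand unit at 52824967, with 18.6 CPM after CF Im25 siRNA, 17.4 after CF Im59 siRNA, 24.4 with scrambled siRNA and 26.7 without siRNA. None of these 3 differed 2-fold between a knockdown and its control. The unit next in level in window 2, on the minus strand at 21988996, was called lower after CF Im25 siRNA, with 15.7 CPM, and had 25.6 CPM after CF Im59 siRNA, against 44.5 CPM with scrambled siRNA and 34.9 CPM without siRNA.

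Sites of a cluster pair lay further apart than those of other pairs in the median. A single site was found in 59.3% of cluster units (217 of 366), against 65.2% of all nuclear units. A pair was found in 39.3% of cluster units and in 32.0% of all. The median distance within a pair was 1898 nt in the clusters (interquartile range 585 to 3409 nt), 1559 nt in the rest of chromosome 19 and 1141 nt over all pairs. Sites at least 1000 nt apart made up 68.8% of the cluster pairs and 53.0% of all pairs. The median level of a cluster unit, 4.37 CPM, lay beside 4.24 CPM for all nuclear units and 6.87 CPM for the rest of chromosome 19.

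For each pair the proximal share is the percentage of reads at the 2 sites that end at the upstream site. Calls of proximal or distal needed a difference of 20 percentage points or more. They also needed at least 50 reads at the 2 sites in both libraries, and a 95% Newcombe interval that left out 0. Each count of calls is given beside the percentage of all nuclear pairs called by the same rule, called the background here. In 43 cluster pairs with at least 50 reads in every library, the median share was 55.1% after CF Im25 siRNA, 43.4% after CF Im59 siRNA, 54.7% with scrambled siRNA and 50% without siRNA. With RNase I it was 67.3% after CF Im68 siRNA and 43.4% with scrambled siRNA. Over the 4779 nuclear pairs of this kind, the alkaline medians were 49.3%, 33.6%, 36.8% and 33.9% in the same order. With RNase I they were 58.7% after CF Im68 siRNA and 38.2% with scrambled siRNA.

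After CF Im25 siRNA cluster pairs moved in both directions. Of 96 pairs tested, 15 were called proximal, or 15.6% (95% Clopper-Pearson interval 9.02 to 24.5%), against a background of 18.3%. Another 9 were called distal, or 9.38% (4.38 to 17.1%), against a background of 2.81%. In the rest of chromosome 19, 8.46% of 331 pairs were called proximal and 2.42% distal. The median change over the 96 cluster pairs was -0.28 points, against 4.19 points over all pairs. The share of proximal calls was near the background and that of distal calls higher than it, in counts of 1 library per group with no test. For proximal calls this depended on the setting. With gaps of 2 kb they were 8.45% (6 of 71, background 16.8%). With a change of at least 10 points they were 19.8% (19 of 96, background 32.8%), and with a minimum of 20 reads 20% (26 of 130, background 19.1%). The intervals treat pairs as independent. When sites with at least 90% of their reads at 1 nucleotide were left out, 5 of 73 pairs were distal, or 6.85% (2.26 to 15.3%), against a background of 2.59%. With a minimum of 100 reads, 4 of 53 were, or 7.55% (2.09 to 18.2%), against a background of 1.82%.

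**Figure D2:**
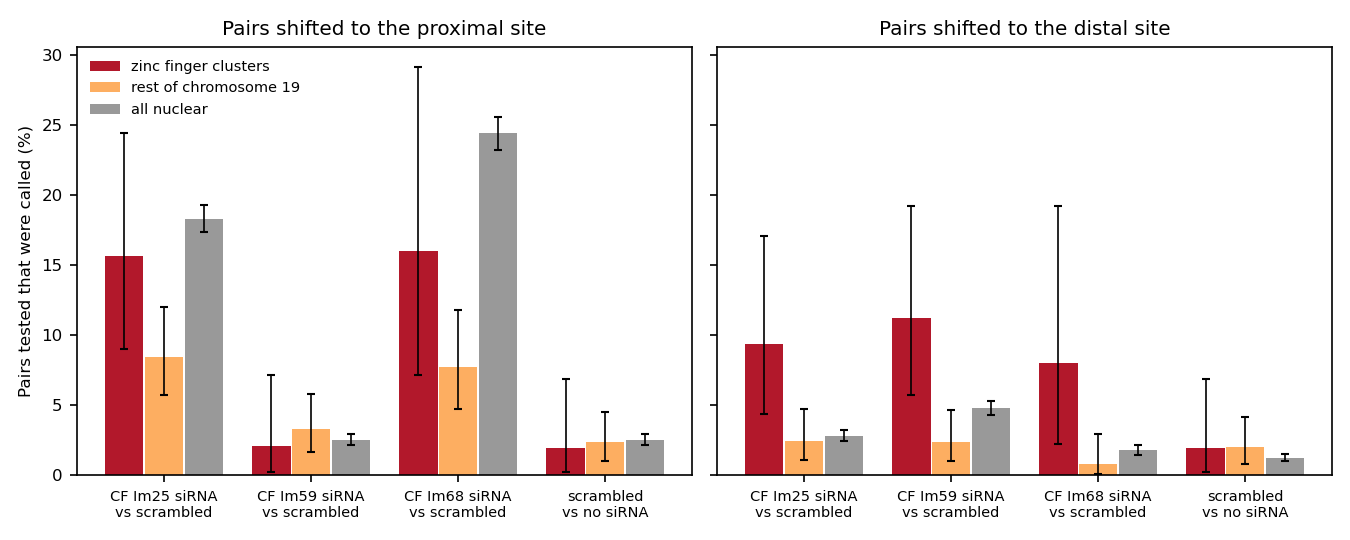
Percentage of tested pairs called proximal (left) and distal (right) in 4 comparisons, for the zinc finger clusters, the rest of chromosome 19 and all nuclear pairs, with exact 95% binomial intervals as error bars that treat pairs as independent. The cluster bars for distal calls, 9.38%, 11.2% and 8% for the 3 knockdowns, stand above those of all nuclear pairs, 2.81%, 4.76% and 1.78%.

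Counts against the library without siRNA were similar: 20 of 113 cluster pairs were proximal (background 20.4%) and 9 distal (background 1.96%). The median change differed between the controls. Against no siRNA it was 2.45 points, with 5.48 points over all pairs, and 62.8% of the cluster changes were positive (all pairs 72.0%). Against scrambled siRNA 47.9% of the 96 cluster changes were positive (all pairs 65.8%). Of the 15 pairs called proximal against scrambled siRNA, 12 (80%) passed against both controls, and over all nuclear pairs 83.3% did. Of the 9 called distal, 6 (66.7%) did, and over all nuclear pairs 42.0%. Both comparisons use the same CF Im25 library, so they are not independent of each other.

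The largest proximal call after CF Im25 siRNA was in window 3, on the minus strand, where the proximal site at 37176631 lies 3972 nt upstream of the distal one at 37172659. Its share was 88.9% after CF Im25 siRNA (128 of 144 reads) and 48.8% after CF Im59 siRNA, against 47.3% with scrambled siRNA (26 of 55 reads) and 63.5% without siRNA. It was 88.4% after CF Im68 siRNA and 32.0% with scrambled siRNA and RNase I (8 of 25 reads). In each fragmentation method the knockdown by CF Im25 or CF Im68 siRNA gave the highest share. The change after CF Im25 siRNA was 41.6 points (95% interval 27.3 to 54.9).

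In window 5, the plus-strand pair at 52824967 and 52829164 is the leading unit of its window. It had a share of 94.4% after CF Im25 siRNA (170 of 180 reads) and 73.6% after CF Im59 siRNA, against 54.7% with scrambled siRNA (116 of 212) and 55.8% without siRNA. In RNase I libraries the share was 67.3% after CF Im68 siRNA (514 of 764) and 58.5% with scrambled siRNA (240 of 410). The 2 alkaline controls lay close together, and the change after CF Im25 siRNA was 39.7 points (31.8 to 46.9).

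The widest pair called proximal, on the plus strand at 38024584 and 38033843 in window 3, spans 9259 nt. Its share was 80.3% after CF Im25 siRNA (114 of 142 reads) and 17.6% after CF Im59 siRNA, against 43.5% with scrambled siRNA (50 of 115) and 24.3% without siRNA. It was 97.3% after CF Im68 siRNA (36 of 37) and 5.56% with scrambled siRNA and RNase I (1 of 18). Within each method CF Im25 or CF Im68 siRNA gave the highest share, although the RNase I libraries fell under the read minimum. The change was 36.8 points (25.1 to 47.2) after CF Im25 siRNA.

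The minus-strand pair at 44616902 and 44612024 in window 4 had a share of 93.8% after CF Im25 siRNA and 88.0% after CF Im59 siRNA, against 54.7% with scrambled siRNA (35 of 64 reads) and 73.1% without siRNA. With RNase I it was 44.7% after CF Im68 siRNA and 45.9% with scrambled siRNA. At the plus-strand pair at 44348395 and 44352866 in the same window the shares were 69.9% after CF Im25 siRNA and 82.8% after CF Im59 siRNA, against 36.2% with scrambled siRNA (21 of 58) and 66.5% without siRNA. It had 0 of 68 reads at the proximal site after CF Im68 siRNA and 4 of 18 with scrambled siRNA and RNase I. For both pairs scrambled siRNA gave the lowest share of the 4 alkaline libraries, and the pair at 44348395 did not pass after CF Im25 siRNA against the library without siRNA (3.41 points, -8.48 to 14.5).

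The most deeply read pair among the 15 was on the plus strand of window 4 at 44738918 and 44741421. Its share was 37.7% after CF Im25 siRNA (1073 of 2844 reads) and 23.0% after CF Im59 siRNA (690 of 2994), against 10.6% with scrambled siRNA (202 of 1898) and 13.6% without siRNA (631 of 4630). In RNase I libraries it was 15.5% after CF Im68 siRNA (212 of 1367) and 7.62% with scrambled siRNA (41 of 538). Each knockdown was higher than its control, and CF Im25 siRNA, with 27.1 points (24.8 to 29.3), was the only 1 of the 3 over the 20-point limit.

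The distal calls after CF Im25 siRNA were led by a pair whose control share was near its ceiling. On the plus strand of window 6 at 57912505 and 57914865, the share was 50.5% after CF Im25 siRNA (49 of 97 reads) and 88.6% after CF Im59 siRNA, against 96.4% with scrambled siRNA (53 of 55) and 93.9% without siRNA. It was 66.7% after CF Im68 siRNA (16 of 24) and 95.5% with scrambled siRNA and RNase I (21 of 22). CF Im25 siRNA gave the lowest alkaline share, and CF Im68 siRNA the lower of the RNase I shares. The fall after CF Im25 siRNA was -45.8 points (-56.0 to -32.8).

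The pair at 37739642 and 37743223, on the plus strand of window 3, also had a lower share after CF Im25 siRNA, on more reads. Its share was 71.8% after CF Im25 siRNA (329 of 458) and 96.6% after CF Im59 siRNA (1296 of 1341), against 98.2% with scrambled siRNA (392 of 399) and 98.1% without siRNA (1398 of 1425). It was 64.3% after CF Im68 siRNA (9 of 14), and with scrambled siRNA and RNase I all 27 of 27 reads were at the proximal site. CF Im25 siRNA gave the only alkaline share under 90%, and the change after CF Im25 siRNA was -26.4 points (-30.8 to -22.1).

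In window 4 the plus-strand pair at 44537261 and 44541590 had shares of 42.1% after CF Im25 siRNA and 46.2% after CF Im59 siRNA, against 76.3% with scrambled siRNA and 72.9% without siRNA. It had 83.8% after CF Im68 siRNA and 84.3% with scrambled siRNA and RNase I. Both alkaline knockdowns were low, and the change was -34.2 points (-46.2 to -20.1) after CF Im25 siRNA. The pair at 21370237 and 21373033 on the plus strand of window 2 had 56.5% after CF Im25 siRNA and 80% after CF Im59 siRNA, against 88.3% with scrambled siRNA (53 of 60 reads) and 77.8% without siRNA. Its change after CF Im25 siRNA was -31.8 points (-42.7 to -18.2).

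**Figure D3:**
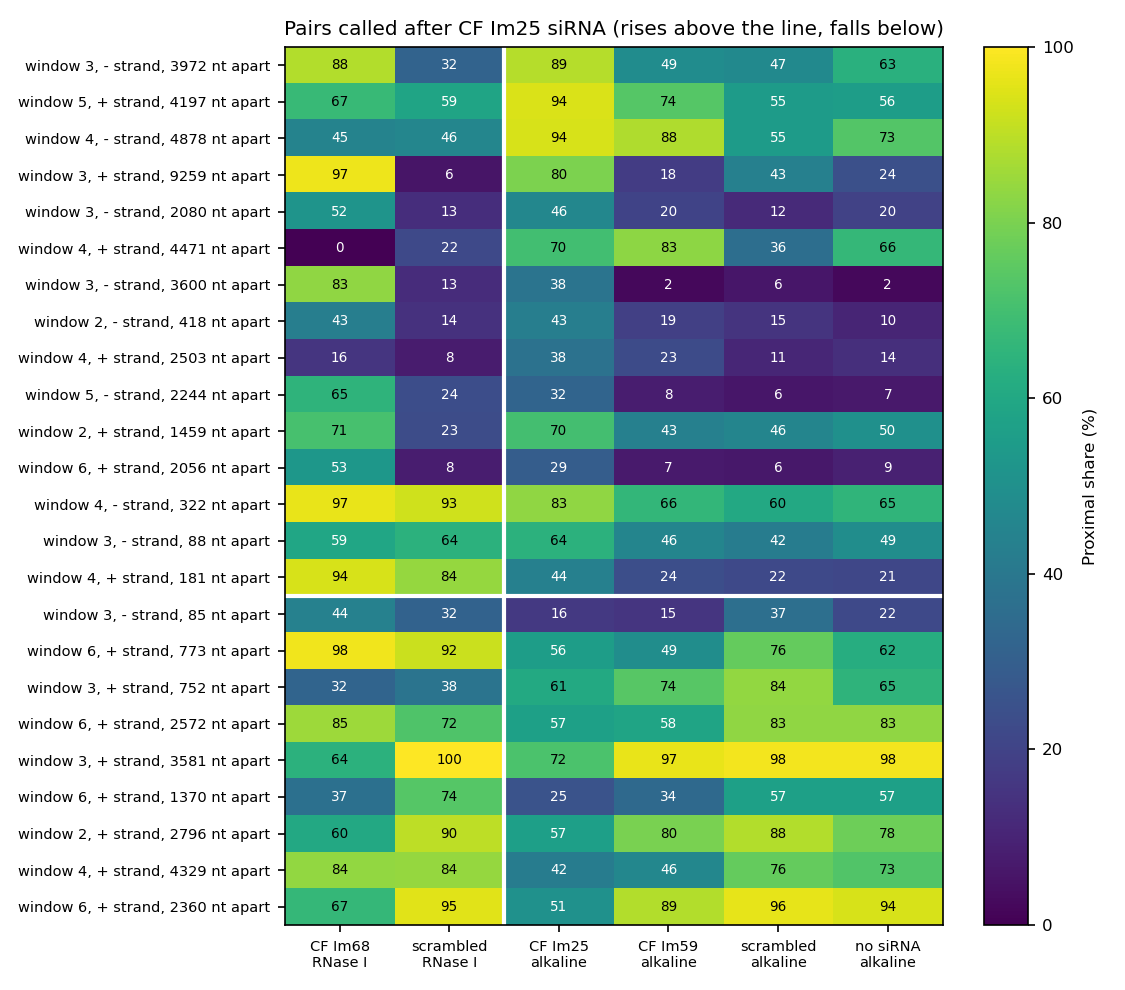
Proximal share (percent, colour scale and printed values) in the 6 libraries for the 24 cluster pairs called after CF Im25 siRNA, ordered by the change against scrambled siRNA, with the 15 rises above the white line and the 9 falls below it. The 2 RNase I libraries stand left of the vertical line, and shares from few reads are drawn like the others.

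The 15 proximal pairs were spread over both strands (7 plus, 8 minus), with distances of 88 to 9259 nt (median 2244 nt). The 9 distal pairs had distances of 85 to 4329 nt (median 2360 nt). Of 54 tested pairs on the plus strand 8 were distal, or 14.8%, and of 42 on the minus strand 1, or 2.38%. Over all nuclear pairs on these strands the shares were 2.93% and 2.67%. Against the library without siRNA, 6 of 66 plus-strand pairs (9.09%, background 2.09%) and 3 of 47 minus-strand pairs (6.38%, background 1.82%) were distal. After CF Im59 siRNA 8 of 55 (14.5%, background 4.86%) and 3 of 43 (6.98%, background 4.66%) were. After CF Im68 siRNA 1 of 27 (3.70%, background 1.59%) and 3 of 23 (13.0%, background 1.97%) were, the other direction. For CF Im25 siRNA against scrambled siRNA, windows 1 to 6 held 2, 9, 25, 28, 5 and 27 tested pairs. Of these, 0, 2, 5, 5, 2 and 1 were proximal, in the same order (background 18.3%). Distal calls were 0, 1, 3, 1, 0 and 4 (background 2.81%). By spacing, 17.5% of the 63 pairs at least 1000 nt apart were proximal (23.3% over all pairs), and 11.8% of the 17 pairs under 200 nt were (6.5% over all pairs). Among cluster pairs with a control share over 80%, 5 of 26 were distal, or 19.2%, against 5.09% of all pairs in that range. That range was set by the scrambled library, which also enters the change.

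After CF Im59 siRNA the calls were mostly distal. Of 98 pairs tested, 2 were called proximal, or 2.04% (0.248 to 7.18%), against a background of 2.53%, and 11 distal, or 11.2% (5.74 to 19.2%), against a background of 4.76%. In the rest of chromosome 19, 2.39% of 335 pairs were distal. The median change over the cluster pairs was -2.35 points, against -1.19 points over all pairs. For distal calls the distance from the background depended on the setting. With gaps of 2 kb they were 7.04% (2.33 to 15.7%, background 3.85%), and with gaps of 10 kb 8.49% (3.96 to 15.5%, background 5.27%). With a change of at least 10 points they were 22.4% (14.6 to 32.0%, background 16.0%), and with a minimum of 100 reads 11.1% (4.19 to 22.6%, background 3.33%). Against the library without siRNA, 7 of 118 cluster pairs were distal (background 2.08%) and 1 proximal (background 1.62%). Of the 11 distal pairs, 5 (45.5%) passed against both controls, and over all nuclear pairs 17.4% did. Of the 2 proximal ones 0 did, and over all nuclear pairs 26.4%. Both counts use the same CF Im59 library. The CF Im25 and CF Im59 comparisons share the scrambled alkaline library, so their calls are not independent of each other.

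The largest distal call after CF Im59 siRNA was at 38398377 and 38400875, on the plus strand of window 3. Its share was 13.5% after CF Im59 siRNA (10 of 74 reads) and 52.6% after CF Im25 siRNA, against 53.2% with scrambled siRNA (33 of 62) and 38.4% without siRNA. After CF Im68 siRNA all 89 of 89 reads were at the proximal site, and the share was 78.3% with scrambled siRNA and RNase I (18 of 23). CF Im59 siRNA gave the lowest of the 4 alkaline shares, with a change of -39.7 points (-53.0 to -24.2).

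On the plus strand of window 4, the pair at 44663148 and 44666522 had a share of 31.6% after CF Im59 siRNA (86 of 272 reads) and 74.0% after CF Im25 siRNA, against 67.5% with scrambled siRNA (79 of 117) and 46.1% without siRNA. It had 80.9% after CF Im68 siRNA and 63.0% with scrambled siRNA and RNase I. CF Im59 siRNA was again the lowest alkaline share, and its change was -35.9 points (-45.3 to -25.3) against scrambled siRNA and -14.5 points against no siRNA. The pair at 23442765 and 23437867, on the minus strand of window 2, had 19.4% after CF Im59 siRNA and 31.9% after CF Im25 siRNA, against 47.9% with scrambled siRNA and 32.1% without siRNA. There the scrambled library was high, and the change after CF Im59 siRNA was -28.5 points (-38.3 to -17.2).

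The pair of the unit with most sites, on the plus strand of window 6 at 58775007 and 58777579, was called distal after both alkaline knockdowns. Its share was 56.9% after CF Im25 siRNA (423 of 743 reads) and 58.2% after CF Im59 siRNA (551 of 946), against 83.3% with scrambled siRNA (1163 of 1397) and 83.3% without siRNA (1522 of 1828). With RNase I it was 85.3% after CF Im68 siRNA and 72.3% with scrambled siRNA. The 2 alkaline controls coincided, and the changes were -26.3 points (-30.4 to -22.2) after CF Im25 siRNA and -25.0 points (-28.7 to -21.3) after CF Im59 siRNA.

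**Figure D4:**
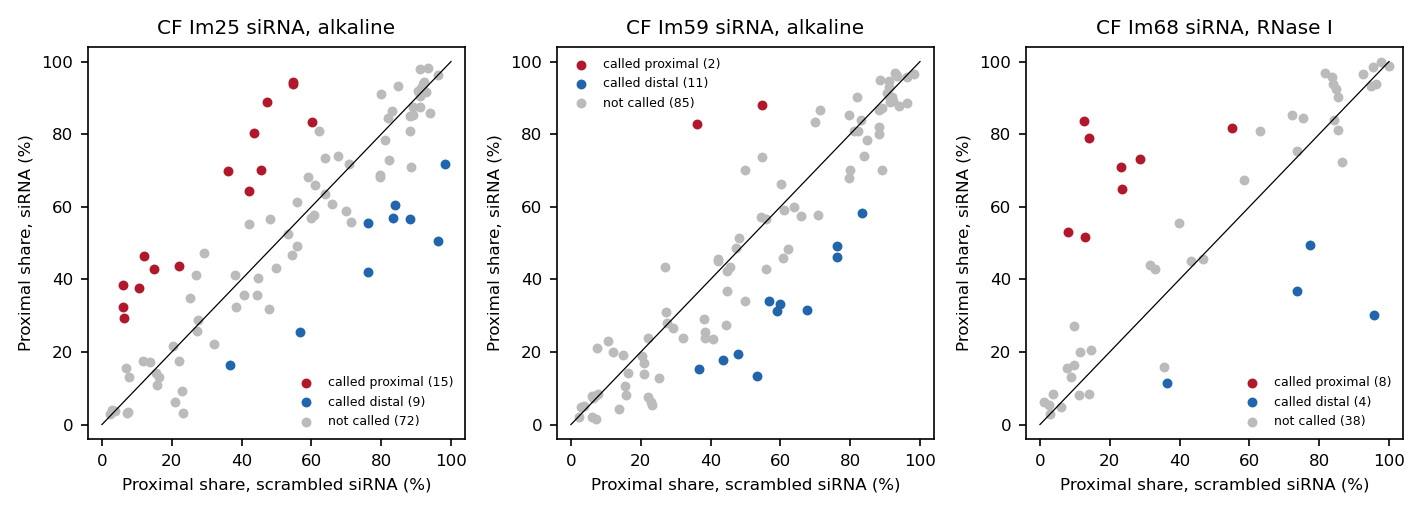
Proximal share of each tested cluster pair after CF Im25, CF Im59 or CF Im68 siRNA (vertical axis, percent) against scrambled siRNA of the same fragmentation (horizontal axis, percent), 1 library per axis. Called pairs are coloured: 15 proximal and 9 distal of 96 for CF Im25, 2 and 11 of 98 for CF Im59, and 8 and 4 of 50 for CF Im68.

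After CF Im68 siRNA 50 pairs had enough reads. Of these, 8 were called proximal, or 16.0% (7.17 to 29.1%), against a background of 24.4%, and 4 distal, or 8% (2.22 to 19.2%), against a background of 1.78%. The median change was 5.07 points, against 5.51 points over all pairs. Of the 50 shares 35 were higher, or 70%, against 72.0% over all pairs. These calls rest on a shallow control with 51 to 164 reads per proximal pair and 53 to 69 reads per distal pair. With a minimum of 100 reads, 1 of 30 pairs was proximal (background 22.5%) and 0 were distal (background 1.37%).

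The largest proximal call after CF Im68 siRNA, among pairs with at least 50 reads in both libraries, was on the minus strand of window 3, at 37005197 and 37001597, 3600 nt apart in a unit of 7 sites. Its share was 83.5% after CF Im68 siRNA (187 of 224 reads) and 12.7% with scrambled siRNA and RNase I (10 of 79). In alkaline libraries it was 38.3% after CF Im25 siRNA (41 of 107) and 2.03% after CF Im59 siRNA (5 of 246), against 6.06% with scrambled siRNA (8 of 132) and 2.07% without siRNA (8 of 386). Both knockdowns lay above every other library of their method. The changes were 70.8 points (60.2 to 77.9) for CF Im68 siRNA and 32.3 points (22.0 to 42.2) for CF Im25 siRNA.

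The minus-strand pair at 37905042 and 37902062 had a share of 79.1% after CF Im68 siRNA (306 of 387 reads) and 14.1% with scrambled siRNA and RNase I (14 of 99). In alkaline libraries it was 68.1% after CF Im25 siRNA and 31.2% after CF Im59 siRNA, against 59.1% with scrambled siRNA and 41.2% without siRNA. The pair at 37675724 and 37672482, also on the minus strand of window 3, had 73.2% after CF Im68 siRNA (145 of 198) and 28.8% with scrambled siRNA and RNase I (19 of 66). Its alkaline libraries held 11 to 31 reads, too few for a call, with 23.3% after CF Im25 siRNA and 9.09% with scrambled siRNA.

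Among the distal calls after CF Im68 siRNA, the minus-strand pair at 37035294 and 37034518 in window 3 had 30.3% (63 of 208 reads), against 95.7% with scrambled siRNA and RNase I (66 of 69). It had 19.9% after CF Im25 siRNA (50 of 251) and 51.1% after CF Im59 siRNA, against 71.4% with scrambled siRNA (20 of 28) and 37.5% without siRNA. Both CF Im25 and CF Im68 siRNA lay below their controls, with a change of -65.4 points (-71.9 to -55.3) after CF Im68 siRNA. The plus-strand pair at 58134722 and 58136092 in window 6 was distal in all 3 knockdowns. Its share was 25.5% after CF Im25 siRNA (39 of 153) and 34.1% after CF Im59 siRNA (72 of 211), against 56.8% with scrambled siRNA (84 of 148) and 56.8% without siRNA (196 of 345). It was 36.9% after CF Im68 siRNA (24 of 65) and 73.6% with scrambled siRNA and RNase I (39 of 53). The 2 others, both minus-strand pairs of window 3, were at 37129339, with 49.5% after CF Im68 siRNA and 77.3% with scrambled siRNA, and at 37641004, with 11.5% after CF Im68 siRNA and 36.5% with scrambled siRNA.

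The CF Im25 and CF Im68 comparisons share no library. Among the 43 cluster pairs tested in both, 9 were proximal with CF Im25 siRNA, 7 with CF Im68 siRNA and 5 with both, or 55.6% of the CF Im25 list and 71.4% of the CF Im68 list. Over all nuclear pairs the same shares were 59.0% and 42.7%. In the CF Im68 comparison, the share was above that of scrambled siRNA in all 9 pairs on the CF Im25 list, and over all nuclear pairs in 823 of 858, or 95.9%. For distal calls the cluster counts were 4 with CF Im25 siRNA, 1 with CF Im68 siRNA and 1 with both. Over all nuclear pairs they were 100, 83 and 19. In the CF Im68 comparison, the share was below that of scrambled siRNA in 2 of the 4 cluster pairs distal after CF Im25 siRNA. Over all nuclear pairs it was below in 56 of 100.

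The 5 common pairs, which include the pair at 37005197, lay in windows 2, 3, 5 and 6. At 24311194 on the plus strand the share was 70.2% with CF Im25 siRNA and 71.0% with CF Im68 siRNA, against 45.7% and 23.1% in their scrambled controls. At 52518822 on the minus strand it was 32.4% with CF Im25 siRNA and 64.9% with CF Im68 siRNA, against 6.06% and 23.5% in their scrambled controls. At 58103198 on the plus strand it was 29.4% with CF Im25 siRNA (80 of 272 reads) and 53.1% with CF Im68 siRNA (121 of 228), against 6.30% (17 of 270) and 7.93% (13 of 164) in their scrambled controls. At 36939284 on the minus strand it was 46.3% with CF Im25 siRNA and 51.8% with CF Im68 siRNA, against 12% and 13% in their scrambled controls. After CF Im59 siRNA these 4 pairs had 43.4%, 7.89%, 7.39% and 20.0%, and without siRNA 50%, 6.95%, 9.21% and 19.8%, in the same order. All 5 pairs were chosen for these rises, and their sites were 1459 to 3600 nt apart.

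Between scrambled siRNA and no siRNA, 2 of 103 cluster pairs were proximal (background 2.52%) and 2 distal (background 1.21%). The median change was 1.92 points. Calls were more frequent between fragmentation methods. Between RNase I and alkaline fragmentation of scrambled siRNA cells, 8 of 46 cluster pairs were proximal (background 24.7%) and 10 distal (background 21.1%), so shares are compared within a method.

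In the 70 cluster units with 3 or more sites that were tested after CF Im25 siRNA, the share of the first site in the unit's reads changed by 5.91 points in the mean and that of the last site by -1.28 points. Over all nuclear units of this kind the means were 6.11 points at the first site and -5.67 points at the last. In the 49 such units tested after CF Im68 siRNA, the means were 8.76 points at the first site and -4.92 points at the last, against 9.37 and -8.91 points over all units. The medians at the last site were -2.41 points in the clusters and -2.46 points over all units after CF Im25 siRNA, and -3.06 and -3.63 points after CF Im68 siRNA. In units of exactly 3 sites the last site of cluster units changed by a median of -4.55 points after CF Im25 siRNA (all units -2.99) and of -4.75 points after CF Im68 siRNA (all units -4.02). How the last site of cluster units compared with that of all units thus depended on the measure and on the units taken.

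The unit with the most sites, on the plus strand of window 6, holds 14 sites over 17347 nt. Its main site, 3506 nt from the first, carried 31.4% of the unit's reads after CF Im25 siRNA and 34.1% after CF Im59 siRNA, against 67.8% with scrambled siRNA and 62.5% without siRNA. Reads were spread over the later sites instead: the site 11081 nt from the first had 8.38% after CF Im25 siRNA and 10.2% after CF Im59 siRNA, against 3.38% with scrambled siRNA and 4.31% without siRNA. The site 14464 nt from the first had 9.27% after CF Im25 siRNA and 8.67% after CF Im59 siRNA, against 3.03% with scrambled siRNA and 5.09% without siRNA. With RNase I the main site had 40.2% after CF Im68 siRNA and 31.8% with scrambled siRNA.

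A unit of 9 sites on the plus strand of window 4 differed between the alkaline libraries at the site 2902 nt from the first. That site held 40.7% of the unit's reads after CF Im25 siRNA and 16.5% after CF Im59 siRNA, against 16.8% with scrambled siRNA and 25.4% without siRNA, while the site at 44679583 held 20.0% after CF Im25 siRNA and 43.5% after CF Im59 siRNA, against 52.9% and 43.8%. With RNase I the site at 44679402 led in both libraries, with 65.6% after CF Im68 siRNA and 62.6% with scrambled siRNA. A unit of 7 sites in window 3 kept its last site, at 36729669, as the main one throughout. That site held 92.5% after CF Im25 siRNA and 95.8% after CF Im59 siRNA, against 94.7% with scrambled siRNA and 96.1% without siRNA. It held 81.5% after CF Im68 siRNA and 91.1% with scrambled siRNA and RNase I.

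Total reads per unit were compared by a 2-fold rule, with a minimum of 50 reads in the higher library and an exact 95% interval that left out 1. After CF Im25 siRNA 203 cluster units were tested, of which 23 were higher, or 11.3% (background 13.1%), and 21 lower, or 10.3% (background 12.1%). After CF Im59 siRNA 22 of 215 were higher, or 10.2% (background 8.61%), and 22 lower (background 11.1%). After CF Im68 siRNA 15 of 159 were higher, or 9.43% (background 11.2%), and 16 lower, or 10.1% (background 6.96%). TMM scaling moved all CF Im68 ratios up by 0.18 on the log2 scale and turned that split into 25 higher and 14 lower, so the balance of directions depends on the scaling. Between scrambled siRNA and no siRNA 6 of 234 were higher (background 4.30%) and 14 lower (background 4.29%). Under TMM scaling, which moved these ratios by -0.11, they were 3 and 16. TMM scaling moved the ratios of all nuclear units alike, and no background is given at that scaling. Whether the cluster counts under it differ from those of all units is therefore not shown. Against the library without siRNA, 26 of 240 cluster units were higher after CF Im25 siRNA (background 9.86%) and 29 lower (background 10.3%), and 12 of 240 were higher after CF Im59 siRNA (background 4.94%) and 20 lower (background 8.25%).

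**Figure D5:**
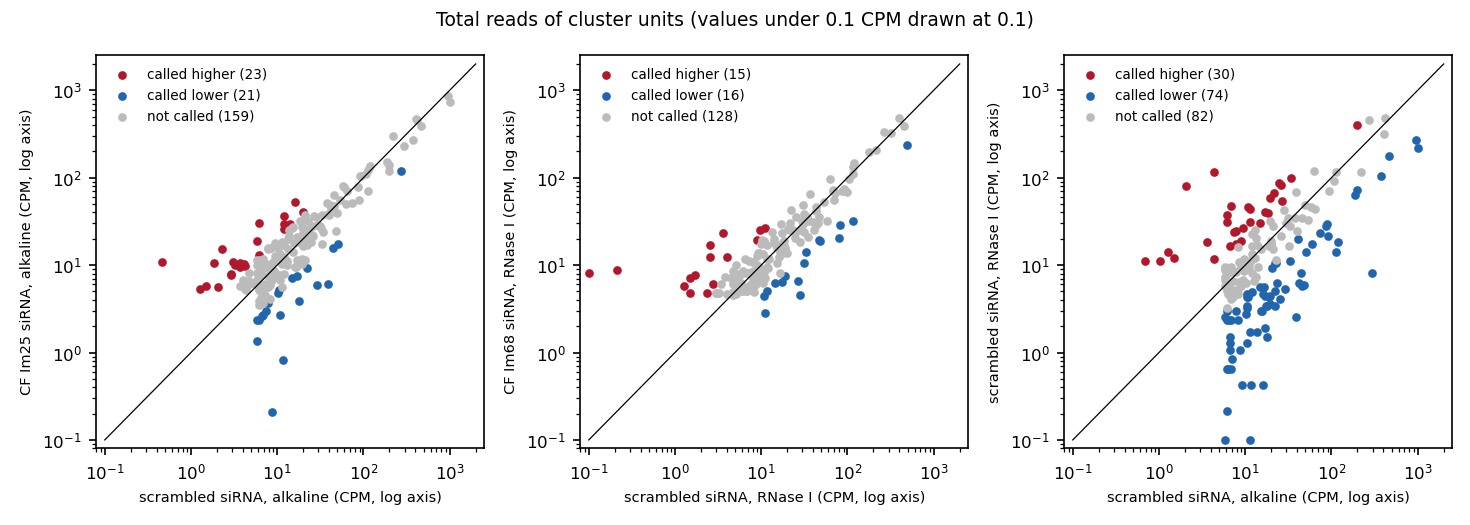
Total reads of cluster units in CPM of reads in nuclear units, on logarithmic axes, for CF Im25 siRNA against scrambled siRNA, CF Im68 siRNA against scrambled siRNA, and RNase I against alkaline fragmentation of scrambled siRNA cells, 1 library per axis. Called units are coloured, 23 higher and 21 lower, 15 and 16, and 30 and 74, and the RNase I panel scatters more widely than the knockdown panels.

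After CF Im25 siRNA the largest rise of a cluster total was at a single plus-strand site in window 5, at 52715315. It had 104 reads after CF Im25 siRNA and 21 after CF Im59 siRNA, against 4 with scrambled siRNA and 21 without siRNA, and 89 reads after CF Im68 siRNA against 0 with scrambled siRNA and RNase I. Within each method the CF Im25 or CF Im68 library was the highest. The ratio was 23.3 (95% interval 8.84 to 87.2) after CF Im25 siRNA. In the CF Im68 library the unit was at least 12.7-fold higher, taking 3 reads as the floor of the control library.

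A single plus-strand site in window 4, at 44470192, had 15.2 CPM after CF Im25 siRNA (147 reads) and 2.69 CPM after CF Im59 siRNA, against 2.30 CPM with scrambled siRNA (20 reads) and 1.87 CPM without siRNA. It had 17.0 CPM after CF Im68 siRNA (186 reads) and 2.56 CPM with scrambled siRNA and RNase I (12 reads). The 4 other libraries lay within 1.87 to 2.69 CPM. The ratios were 6.6 (4.12 to 11.1) for CF Im25 siRNA and 6.63 (3.71 to 13.1) for CF Im68 siRNA. Of 130 cluster units tested in both comparisons, 13 were higher with CF Im25 siRNA, 6 with CF Im68 siRNA and 4 with both, or 30.8% of the CF Im25 list and 66.7% of the CF Im68 list. Over all nuclear units the same shares were 26.6% and 38.2%. For lower units the counts were 6, 15 and 1, or 16.7% and 6.67% of the lists, against 19.4% and 24.1% over all nuclear units.

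Further rises after CF Im25 siRNA were found at 53953587 on the plus strand, with 10.5 CPM against 1.84 CPM with scrambled siRNA and 4.53 CPM without siRNA, and at 37034518 on the minus strand, with 30.4 CPM against 6.22 and 8.22 CPM. The minus-strand site at 56887218 had 5.38 CPM after CF Im25 siRNA and 5.64 CPM after CF Im59 siRNA, against 1.27 CPM with scrambled siRNA and 6.95 CPM without siRNA. There the scrambled library was the low one, and both knockdowns lay under the library without siRNA.

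Falls after CF Im25 siRNA were led by the plus-strand site at 21702528 in window 2. It had 2 reads after CF Im25 siRNA and 29 after CF Im59 siRNA, against 76 with scrambled siRNA and 229 without siRNA, and 4 reads after CF Im68 siRNA against 5 with scrambled siRNA and RNase I. The ratio after CF Im25 siRNA was 0.0236 (0.00281 to 0.0883). At 53569192 on the minus strand of window 5 there were 8 reads after CF Im25 siRNA and 19 after CF Im59 siRNA, against 100 with scrambled siRNA and 188 without siRNA. At 53741850 on the same strand there were 59 reads after CF Im25 siRNA and 75 after CF Im59 siRNA, against 335 with scrambled siRNA and 875 without siRNA, or 0.158 (0.118 to 0.209) and 0.169 (0.129 to 0.217) of the scrambled level. In these 3 units both alkaline knockdowns lay below both alkaline controls.

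The minus-strand site at 44763671 had 5.89 CPM after CF Im25 siRNA and 6.07 CPM after CF Im59 siRNA, against 28.6 CPM with scrambled siRNA and 9.13 CPM without siRNA, so the scrambled library stood apart there. The minus-strand site at 44778103 had 3.93 CPM after CF Im25 siRNA and 5.20 CPM after CF Im59 siRNA, against 17.7 CPM with scrambled siRNA and 13.1 CPM without siRNA. In RNase I libraries it had 4.84 CPM after CF Im68 siRNA (53 reads) and 1.49 CPM with scrambled siRNA (7 reads), the other direction.

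After CF Im59 siRNA the largest rise was at 23290252 on the plus strand of window 2. It had 58 reads after CF Im59 siRNA and 35 after CF Im25 siRNA, against 2 with scrambled siRNA and 0 without siRNA, and 0 in both RNase I libraries. The ratio after CF Im59 siRNA was 21.8 with an interval of 5.78 to 185. The site at 24010932, also on the plus strand of window 2, had 5.38 CPM after CF Im59 siRNA, against 1.04 CPM with scrambled siRNA and 3.26 CPM without siRNA. The unit at 58858216 on the minus strand had 5.12 CPM, against 1.5 and 4.72 CPM in the same controls, and that at 37168686 on the plus strand had 9.54 CPM, against 3.23 and 6.11 CPM. In these 3 the scrambled library was lower than the library without siRNA. Falls were found at 53115631 on the minus strand, with 1.13 CPM after CF Im59 siRNA against 6.22 CPM with scrambled siRNA and 5.50 CPM without siRNA, and at 12252905 on the minus strand, with 2.08 CPM against 10.8 and 6.65 CPM.

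After CF Im68 siRNA the minus-strand site at 44811833 had 96 reads, against 1 with scrambled siRNA and RNase I, a ratio of 41.1 (7.20 to 1639). Its alkaline libraries held 3 to 8 reads. The plus-strand unit at 57706313 had 23.5 CPM after CF Im68 siRNA and 3.63 CPM with scrambled siRNA and RNase I, and the site at 57766504 had 7.21 CPM after CF Im68 siRNA and 1.49 CPM with scrambled siRNA. Falls were led by the minus-strand unit at 37071157, with 4.56 CPM after CF Im68 siRNA (50 reads) and 27.9 CPM with scrambled siRNA (131 reads), a ratio of 0.163 (0.115 to 0.228). In alkaline libraries that unit had 11.6 CPM after CF Im25 siRNA and 43.3 CPM after CF Im59 siRNA, against 21.0 CPM with scrambled siRNA and 20.4 CPM without siRNA. The 4 other falls, all on the plus strand, were at 44593766, with 6.66 CPM after CF Im68 siRNA and 26.7 CPM with scrambled siRNA, at 57809723, with 20.3 and 79.99 CPM, at 37125016, with 2.83 and 11.1 CPM, and at 44476916, with 32.1 and 116.9 CPM, in the same order.

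Cluster totals differed more often between fragmentation methods than in any siRNA comparison. Between RNase I and alkaline hydrolysis of scrambled siRNA cells, 30 of 186 cluster units were higher, or 16.1% (background 23.8%), and 74 lower, or 39.8% (background 34.8%). With at least 50 reads in the higher library, and 3 reads taken as the floor where a library had 0, 5 of the 186 units were at least 10-fold higher (background 4.41%) and 9 at least 10-fold lower (background 5.59%). The minus-strand site at 12676166 had 115 CPM with RNase I and 4.38 CPM with alkaline hydrolysis. The plus-strand unit at 44502478 had 8.11 CPM with RNase I and 296 CPM with alkaline hydrolysis. The CF Im68 library, also made with RNase I, had 111 CPM at the first of these and 7.03 CPM at the second, close to its own control. Windows 3 and 6 had 0.668 (0.652 to 0.683) and 0.601 (0.587 to 0.615) of their alkaline level with RNase I, and window 1 had 1.10 (1.01 to 1.20). Each method had 1 scrambled siRNA library, so the method and other differences between these libraries cannot be told apart.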

How the data were processed

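A-seq reads of 6 HEK293 libraries, 1 per group, were analysed. The authors deposited, for each nucleotide and strand, the whole-number count of reads whose 3' end lies there, without scaling. The builds hg19 and GRCh37 are named per the submitters' processing notes. For the aligner, read filters, and treatment of duplicate, internally primed and multiply matching reads, these sources give nothing.

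From these counts, sites were called on the 6 libraries pooled at equal weight (radius 25 nt), kept at a mean of at least 1 CPM, joined into units at gaps of at most 5 kb, and paired as the 2 most used sites. Calls were made over the whole genome, and the rows of the 6 windows were taken. With 1 library per group both call rules are rules of size. Totals were scaled to reads in nuclear units. Copies made by PCR are not independent molecules, so the Newcombe intervals of shares and the exact intervals of ratios, both 95%, cover counting error only. The Clopper-Pearson 95% intervals of percentages called are over pairs or units, not reads, and treat them as independent draws. The members, windows and lists were chosen with earlier results of these data known. Named were the 3 highest units of each window, the 6 largest rises and 4 largest falls of share and the 5 largest rises and falls of totals per knockdown among called loci, the pairs proximal after both CF Im25 and CF Im68 siRNA, and the 3 units with most sites. For the highest units of a window, the first is given in full. Other loci named were chosen after their values were seen. Alternatives were tried for radius, minimum level, gap, read minimum, size of change, control, scaling (TMM of edgeR 4.0.16 and median of ratios of DESeq2 1.42.0) and depth. The steps were tested on simulated data. Python 3.11.15 with numpy 2.4.6, pandas 2.3.3 and scipy 1.17.1, and R 4.3.3, were used.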

Additional observations from a re-analysis of the deposited data

Results flagged for a closer look

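Sites under the minimum of 1 CPM were left out of all comparisons, and a few of them held reads in a knockdown library and 0 in its scrambled control. After CF Im25 siRNA there were 2 with at least 20 reads, both on the plus strand, at 21254987 with 28 reads and at 38043382 with 23 reads. In the library without siRNA they held 3 and 7 reads, and after CF Im59 siRNA 10 and 5. After CF Im68 siRNA there were 3, at 21565780 on the plus strand with 38 reads, at 37006333 on the minus strand with 23 reads and at 44351465 on the plus strand with 28 reads. In the other direction, 1 site, at 52884644 on the plus strand, had 20 reads with scrambled siRNA in the alkaline library and 0 after CF Im25 and CF Im59 siRNA.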

How the results depend on the processing

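No paired analysis was possible because each group held 1 library and the 2 groups of a comparison share no replicate number in the labels, and for the same reason no replicate could be left out. Over 238 repeats of the 20 percentages of cluster pairs or units called, 222 stayed within the exact 95% interval of the value reported, and 16 moved. Backgrounds below are those of all nuclear pairs at the same setting, and none is given for units here. With gaps of 2 kb, proximal pairs were 8.45% (6 of 71, background 16.8%) after CF Im25 siRNA and 0 of 71 (background 2.28%) after CF Im59 siRNA. Higher units after CF Im25 siRNA were 16.9% (38 of 225) with these gaps. With at least 100 reads, proximal pairs were 0 of 54 (background 1.59%) after CF Im59 siRNA and 3.33% (1 of 30, background 22.5%) after CF Im68 siRNA. Distal pairs after CF Im68 siRNA were 0 of 30 (background 1.37%), and units for scrambled against no siRNA 0.625% higher and 3.13% lower. With a change of at least 10 points, pairs after CF Im59 siRNA were 8.16% proximal (background 8.29%) and 22.4% distal (background 16.0%). Those after CF Im68 siRNA were 30% proximal (background 37.5%) and those for scrambled against no siRNA 14.6% proximal (background 11.6%). Proximal pairs for scrambled against no siRNA were 0 of 101 with a radius of 10 nt (background 2.38%). Higher units were 5% after CF Im59 siRNA against no siRNA and 15.7% after CF Im68 siRNA with TMM scaling, and lower units for scrambled against no siRNA were 2.40% with libraries thinned to the smallest total. The unit at 56887218 turned round against no siRNA, with ratios of 0.773 after CF Im25 siRNA and 0.811 after CF Im59 siRNA. Apart from this, of 631 repeats for named loci 572 kept their call and 57 lost it. A locus that was not formed again at a setting, with the same pair or main site, is not among the 631. With gaps of 2 kb 36 repeats entered, against 56 with a minimum of 20 reads. Causes other than fewer reads or pairs were not tested.

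Counts moved by over 1.5 times in 78 of the 238 repeats, of which 19 had the minimum of 100 reads and 15 that of 20 reads. With 20 reads, calls after CF Im25 siRNA were 26 proximal (20%, background 19.1%) and 17 distal (13.1%, background 4.19%) of 130 pairs. Units were 44 higher and 39 lower of 309. With 100 reads the calls after CF Im25 siRNA were 8 proximal (15.1%, background 17.1%) and 4 distal (7.55%, background 1.82%) of 53 pairs. Units were 14 higher and 10 lower of 132. With 20 reads, calls after CF Im68 siRNA were 21 proximal (20.2%, background 25.7%) and 9 distal (8.65%, background 2.73%) of 104 pairs. After CF Im59 siRNA 5 of 133 pairs were proximal with 20 reads, against 291 of 8548 nuclear pairs. With 100 reads, 6 of 54 pairs were distal after CF Im59 siRNA (11.1%, background 3.33%). Lower units with gaps of 10 kb were 11 of 167 after CF Im25 siRNA and 12 of 181 after CF Im59 siRNA. For units no background is given at these settings, so whether their counts differ from those of all units is not shown. The RNase I control, with a median of 20 reads per cluster unit, limits the CF Im68 comparison.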

Other observations

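Cleavage within a cluster site was about as focused as elsewhere. The main nucleotide held a median of 63.7% of a site's reads in the clusters and 65.1% over all nuclear sites. At 24.0% of the cluster sites (162 of 676) at least 90% of the reads ended at 1 nucleotide, against 22.1% of all nuclear sites.

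Convergent ends were few. The main site of 14 of the 366 cluster units, or 3.83%, had the main site of another unit on the opposite strand within 1 kb. The same held for 9.62% of the units in the rest of chromosome 19 and for 4.80% of all nuclear units. Cluster units lay on the plus strand in 207 cases and on the minus strand in 159.

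Sites of at least 1 CPM held a smaller part of the reads in the clusters than elsewhere. They held 84.9% of the window reads after CF Im68 siRNA and 85.2% with scrambled siRNA and RNase I, against 92.1% and 91.4% of the reads of the other nuclear positions. In alkaline libraries they held 88.3% to 90.9% of the window reads, against 91.3% to 92.7% of the reads of the other nuclear positions.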
